A study of Drosophila melanogaster with 8 samples.

Results

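The nuclear genes for the proteins of the mitochondrial ribosome were followed in Drosophila melanogaster S2R+ cells, a macrophage-like line derived from embryos, and in cells mutant for Stat92E, the transcription factor of the JAK/STAT pathway. Members are all genes whose FlyBase symbol begins with mRpL or mRpS. The annotation held 73 such symbols, and 72 of them were among the 13932 genes of the deposited tables, while the other 1 was not analysed here. By symbol, 47 members belong to the large subunit and 25 to the small subunit. The 4 groups of 2 poly-A selected RNA-seq libraries were STAT92E mutant cells given upd for 1 hour, STAT92E mutant cells given control media for 1 hour, wild type S2R+ cells given upd for 1 hour, and wild type S2R+ cells given control media for 1 hour. upd is the secreted ligand of the Drosophila JAK/STAT receptor, and the series asked which genes that pathway targets. How the Stat92E mutation was made and whether the mutant line is 1 clone are not given in the labels, so the genotype cannot be told apart from other differences between the cell lines.

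Mitochondria keep a small genome whose protein products are subunits of the respiratory chain and of ATP synthase, and these are made on a ribosome of the organelle's own. The RNAs of that ribosome are encoded in the mitochondrial genome, whereas every one of its proteins is encoded in the nucleus, made in the cytosol and imported. The large subunit carries the peptidyl transferase centre and the exit tunnel, and the small subunit carries the decoding centre. In flies, loss of single members slows growth, and the genes are commonly read as housekeeping genes with an output matched to cell growth.

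Library totals ranged from 8285533 to 30352948 counts, and both replicate 1 libraries of wild-type cells were the shallow ones, with 9142736 counts after upd and 8285533 in control media. The genes of the mitochondrial genome took 15.0% to 19.1% of the counts in mutant libraries and 12.8% to 22.1% in wild-type libraries, where the shallow libraries had 22.1% and 20.2% and the deep ones 12.8% and 14.0%. Stat92E had 111 and 121 CPM (normalised counts scaled to a common library size) in mutant cells after upd and 103 and 114 CPM in mutant cells in control media, against 157 and 160 CPM in wild-type cells after upd and 161 and 178 CPM in wild-type cells in control media. The mutant libraries were all lower, but a mutation need not remove a transcript, so this only partly checks the labels. Socs36E, a known target of the pathway, had 39.8 and 98.0 CPM in mutant cells after upd, 32.4 and 49.9 CPM in mutant cells in control media, 927 and 1007 CPM in wild-type cells after upd and 287 and 208 CPM in wild-type cells in control media. Summed CPM of 10 blood cell marker genes was 435 to 470 in mutant libraries and 854 to 1358 in wild-type libraries, while 4 neuronal markers summed to 11.6 to 23.1, 4 muscle markers to 0.85 to 2.66 and 4 fat body markers to 0.48 to 3.92 in any library. The 4 markers of wing disc epithelium summed to 242 to 282 in mutant libraries and 164 to 233 in wild-type libraries. Both these sums and those of the blood cell markers separated the lines, in opposite directions. With a mean below 1 CPM, 2 of the wing disc markers and 3 of the blood cell markers added little to the sums. The wing disc marker sd starts 43.1 kb from the member mRpL3, in a stretch of X described below. Between the lines sd differed by 0.33 in control media and 0.18 with upd, and did not pass in either. The part of these marker differences in the results between the lines was not tested. In bulk RNA, fewer cells of a kind and less RNA per cell cannot be told apart.

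Nearly all members were expressed, at moderate levels. Of the 72, 71 passed the filter on low counts, and the median of their mean RPKM (read counts scaled to library size and transcript length, averaged over the 8 libraries) was 39.6, with quartiles of 27.4 and 65.2. All tested genes had a median of 11.7 RPKM, and 67 of the 71 members lay above it. Between 20 and 100 RPKM stood 52 members, 13 were below 20 and 6 were above 100. The 88 tested genes for proteins of the cytosolic ribosome (symbols RpL and RpS) had a median of 1008 RPKM, 25.4 times that of the mitochondrial set. Median levels were 38.6 RPKM for the large and 40.0 RPKM for the small subunit, so the subunits were close, while members within each subunit differed widely from one another.

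The levels of single members spanned 56.1-fold. mRpS25, a small subunit protein, was the highest with a mean of 425 RPKM, and its libraries read 385 and 415 RPKM in mutant cells after upd, 554 and 551 in mutant cells in control media, 331 and 409 in wild-type cells after upd, and 395 and 363 in wild-type cells in control media. mRpL36, the counterpart of a small bacterial large subunit protein, followed with a mean of 417 RPKM. mRpL23, whose bacterial counterpart lines the end of the exit tunnel, had a mean of 245 RPKM, mRpS7 had 161 and mRpS22 had 131. These levels are set by RPKM, which is per length, and the 3 highest members held 26.0% of the summed RPKM of the set. At the other end, mRpL27 and mRpL55 had 7.58 RPKM each, mRpL42 had 9.04, mRpL11 had 10.8 and mRpS6 had 12.9. mRpL27 read 9.80 and 6.39 RPKM in mutant cells after upd, 6.32 and 4.27 in mutant cells in control media, 11.4 and 8.38 in wild-type cells after upd, and 7.55 and 6.47 in wild-type cells in control media. Its 8 libraries all lay far below those of mRpS25, the lowest of which was 331 RPKM.

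**Figure D1:**
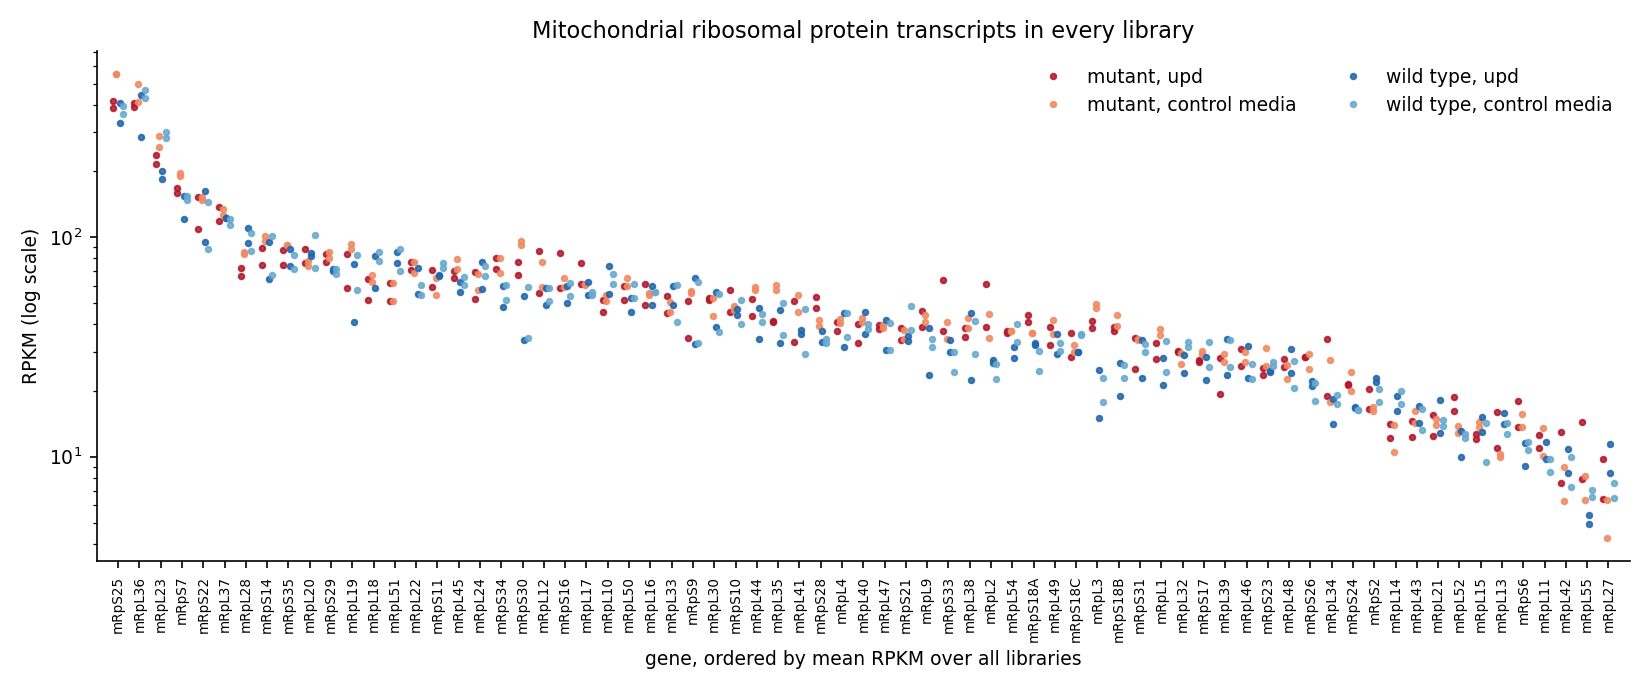
RPKM on a log axis of each of the 71 tested members, ordered by mean, with 1 point per library coloured by line and medium. The means run from 7.58 to 425 RPKM, and 52 of its members lie between 20 and 100 RPKM.

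The order of the members was alike in all libraries. Spearman's rho of member RPKM between pairs of libraries was 0.861 to 0.984 across the 71 genes, which share length and base composition in both libraries of a pair and are not replicates. Between the replicates of a group, the median absolute log2 difference of a member was 0.25 in mutant cells after upd, 0.11 in mutant cells in control media, 0.20 in wild-type cells after upd and 0.31 in wild-type cells in control media. The spread was thus widest between the shallow and the deep wild-type control library. The lowest count of any tested member was 24, in the shallow wild-type library given upd, and the median member had 269 counts or more in every library.

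mRpL53 (FBgn0050481, chromosome arm 2R, 13954195 to 13955664, dm6) was the member that did not pass, with 0 counts in all 8 libraries. All 829 of its exon bases lie within an exon of CG33155 on the same strand, and that gene had 0 to 5 counts per library. Reads from a shared stretch can be assigned to neither gene by some counting methods, and the method used is not given in the sources used here. A level of mRpL53 can therefore not be read from its 0.

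The members are short and closely packed against other genes. Their median transcript length in the tables was 774 bases, from 327 to 2078, against 2043 bases over all tested genes. They lie on all major arms, with 12 on 2L, 12 on 2R, 16 on 3L, 21 on 3R and 11 on X. Of the 72 members, 51 (70.8%) had an opposite-strand protein-coding gene that starts between 500 bases upstream and 100 bases downstream of their own start. This held for 25.4% of the 13842 protein-coding genes in the tables and 36.2% of those tested. Exon bases were shared with another protein-coding gene by 43 members (59.7%), against 28.6% of protein-coding genes and 35.4% of those tested. Most shared stretches were short, but mRpS24 shared 332 of 600 bases with TBC1d7, mRpS9 shared 325 of 1293 with ArgRS-m, and mRpL13 shared 236 of 671 with CG10602 on its own strand. Counts of such pairs are uncertain, because the strand setting of the counting is not given in the sources used here. mRpL3, mRpS30 and mRpS18B, described below, share no exon base with another gene.

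The first comparison asked whether 1 hour of upd changed the members in wild-type cells. No member passed the test: 0 of 71 were higher and 0 lower by edgeR's quasi-likelihood test, against 0.0% higher and 0.0% lower over the 8126 genes tested. Even Socs36E, with 927 and 1007 CPM after upd and 287 and 208 CPM in control media, was thus not called. A count of 0 members therefore does not show that the members did not respond. The same limit holds for the other upd comparisons below, where edgeR called no gene either. DESeq2 and limma also called 0 members. At an unadjusted p under 0.05 stood 1 member (1.41%), against 1.82% of all genes. The median log2 difference of the members was 0.03, that of all genes was 0.00, and 67 of the 71 differed by less than 1.25-fold. Libraries of the groups did not overlap, with upd higher, for 9 members (12.7%, against 12.1% of all genes), and with upd lower for 5 (7.04%, against 12.3%). These shares were close to or under those of all genes. Of the 71 members, 44 had positive differences, and the median was 0.03 in the large and 0.02 in the small subunit. On the log2(RPKM + 1) scale the median of the members was −0.04 and that of all genes −0.06.

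mRpL23 had the lowest p in wild-type cells. It had 148 and 134 CPM after upd and 228 and 181 CPM in control media, a log2 difference of −0.53 ± 0.18 (SE, adjusted p = 1, n = 2 libraries each, edgeR). Both upd libraries were below both control libraries, and the control replicates differed by more than the nearest libraries of the groups did. In mutant cells the same gene had 183 and 153 CPM after upd and 192 and 165 CPM in control media, where the groups overlapped. The next 4 by p were mRpL15 with a log2 difference of 0.33, mRpL27 with 0.59, mRpL22 with 0.21 and mRpS18A with 0.32, and none passed. mRpL22, whose bacterial counterpart lines the exit tunnel, had 69.7 and 75.7 CPM after upd and 64.6 and 61.0 CPM in control media, a small step that was about as large in mutant cells, with 85.9 and 86.0 CPM after upd and 71.4 and 77.6 CPM in control media.

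In mutant cells, which carry the Stat92E mutation, upd likewise gave no member that passed. By edgeR 0 of 71 were higher and 0 lower, against 0.0% and 0.0% of all genes, DESeq2 called 0, limma called 0, and 1 member stood at an unadjusted p under 0.05. The differences leaned to the positive side, with 51 of 71 above 0 (71.8%, against 50.05% of all genes) and a median of 0.15 against 0.00 for all genes. Libraries did not overlap, with upd higher, for 24 members (33.8%, against 18.0% of all genes) and with upd lower for 8 (11.3%, against 19.0%). The lean was of similar size in both subunits, with medians of 0.16 for the large and 0.13 for the small. Single library pairs gave member medians between 0.06 and 0.18, while the members of the 2 upd replicates differed from each other by a median of 0.14. The members of the 2 control replicates differed by a median of −0.0015. The lean was about as large as the difference between the upd replicates and larger than that between the control replicates. Without mutant upd replicate 1 the median was 0.05. On the log2(RPKM + 1) scale, where the median of all genes was −0.14, that of the members was −0.03. The share of counts from the mitochondrial genome was 19.1% and 17.0% after upd, against 15.0% and 15.1% in control media, and its part in the lean was not tested.

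mRpS28 had the lowest p in that comparison. It had 46.1 and 37.6 CPM in mutant cells after upd and 29.3 and 30.01 CPM in mutant cells in control media, against 29.8 and 27.6 CPM in wild-type cells after upd and 27.6 and 24.6 CPM in wild-type cells in control media. The mutant upd libraries were the highest of all 8, and the log2 difference between media was 0.50 ± 0.17 (SE, adjusted p = 0.992, edgeR) in mutant cells. mRpL13 followed with 0.61 ± 0.28, mRpL27 with 0.80 ± 0.39, mRpL35 with −0.34 ± 0.16 and mRpL52 with 0.58 ± 0.28, all at the same adjusted p. mRpL35 went the other way, with 38.5 and 35.4 CPM after upd and 48.6 and 44.8 CPM in control media, and its groups did not overlap.

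**Figure D2:**
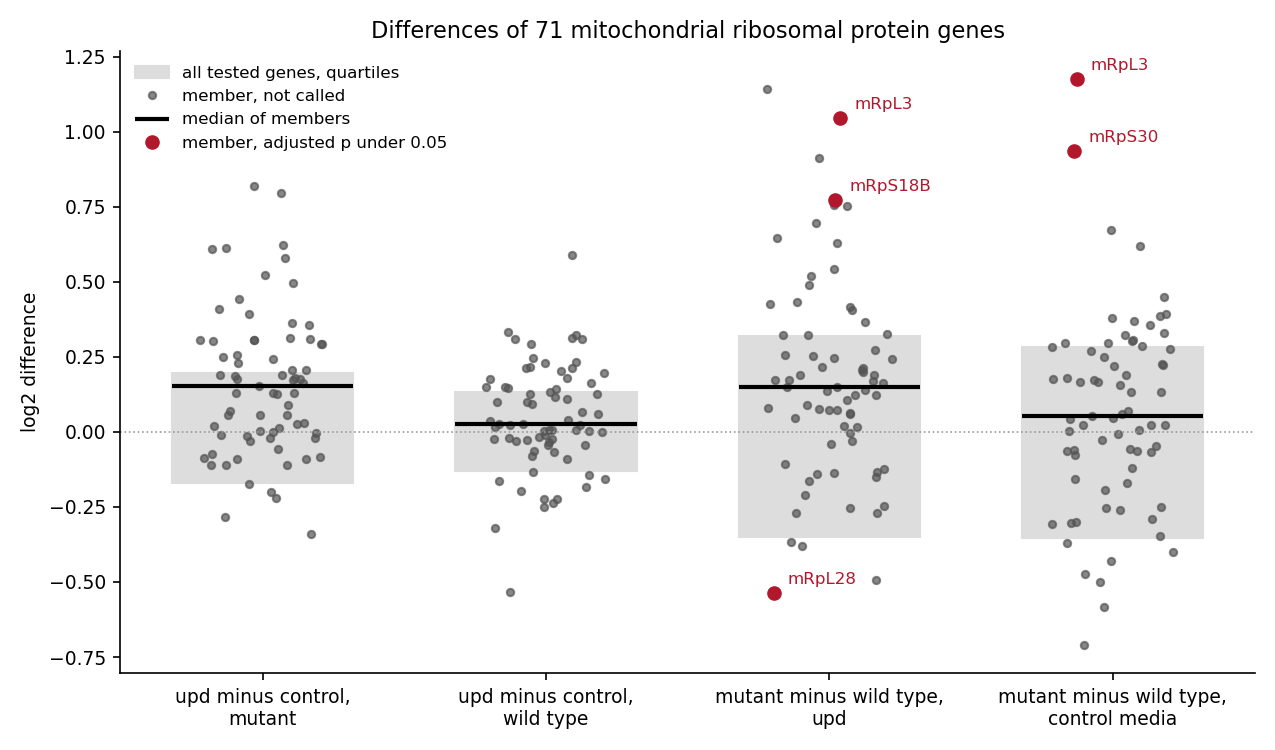
The log2 difference of every tested member in 4 comparisons, 1 point per member spread sideways at random, with members that passed in red and named, black bars at the members' median and grey boxes over the quartiles of all tested genes. Members lie closest to 0 in wild-type cells after upd, from −0.53 to 0.59, and reach 1.18 between the lines.

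The positive differences in mutant cells went with transcript length. Members under 750 bases had a median of 0.25 (34 genes), those of 750 to 1000 bases 0.15 (16 genes) and those of 1000 to 1500 bases −0.01 (19 genes). All tested genes of the same length classes had medians of 0.27, 0.12 and 0.02, from 595, 624 and 1436 genes. Within a length class, then, the members stood close to other genes of their length. In wild-type cells the members' medians in these classes were 0.00, 0.11 and 0.04. Across the 71 members, Spearman's rho of length with the upd difference was −0.48 in mutant cells and 0.22 in wild-type cells, against −0.14 and −0.03 across all tested genes, and genes are not independent replicates. The part of length in the members' lean was not tested further.

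**Figure D3:**
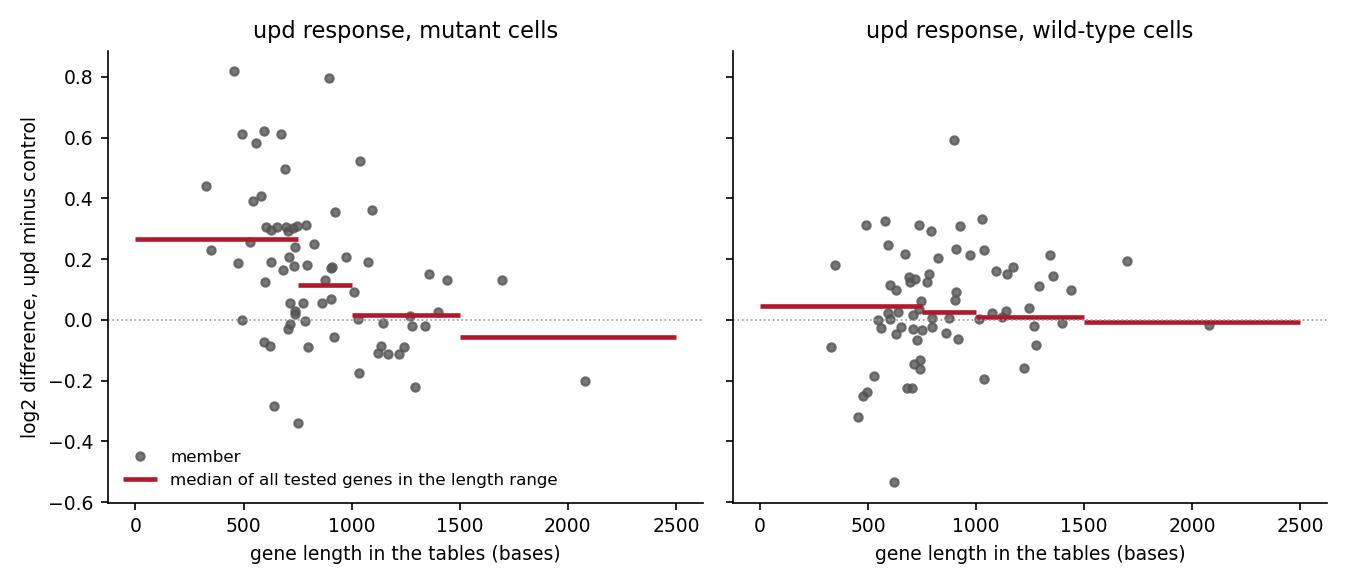
The log2 upd difference of each member (grey points) against its transcript length in bases, with red lines for the median of all tested genes of each length class, in mutant and in wild-type cells. In mutant cells, short members lie above 0 as other short genes do, with medians of 0.25 and 0.27 under 750 bases.

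Whether the upd response differed between the lines was tested as an interaction, mutant response minus wild-type response. None of the members passed, with 0 of 71 higher and 0 lower by edgeR, against 0.0% and 0.0% of all genes, and DESeq2 and limma called 0. No member reached an unadjusted p under 0.05, against 88 of all genes. The median was 0.08, that of all genes was 0.00, and 50 of 71 differences were positive. The median changed sign on the log2(RPKM + 1) scale (−0.03, all genes −0.08), without wild-type control replicate 1 (−0.02) and without mutant upd replicate 1 (−0.01). The SE of such a difference had a median of 0.29, so a difference of that size in a single member was not detectable here. Larger ones, up to 1.14 in mRpL55, did not pass either. The lowest p belonged to mRpL32 at 0.52 ± 0.25, followed by mRpL55 at 1.14 ± 0.59, mRpL23 at 0.45 ± 0.25, mRpL28 at −0.29 ± 0.19 and mRpL52 at 0.61 ± 0.41 (adjusted p = 1 for each, edgeR). By length, the members' median was 0.28 under 750 bases and 0.01 from 750 to 1000 bases, against 0.23 and 0.09 for all tested genes. Spearman's rho of length with the interaction difference was −0.60 across the members and −0.13 across all tested genes. The part of length in the interaction was not tested.

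mRpL55 shows how a low level limits this comparison. It had 8.17 and 4.11 CPM in mutant cells after upd and 3.11 and 3.84 CPM in mutant cells in control media, against 2.91 and 2.66 CPM in wild-type cells after upd and 3.92 and 3.09 CPM in wild-type cells in control media. One mutant upd library stood above all the others, and its replicate lay near the control libraries. mRpL32 had 26.6 and 24.2 CPM in mutant cells after upd and 19.9 and 21.6 CPM in mutant cells in control media, against 21.9 and 21.9 CPM in wild-type cells after upd and 28.4 and 23.0 CPM in wild-type cells in control media. Its differences ran in opposite directions in the lines, without overlap in either, and their contrast did not pass.

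Between the lines, few members differed. In control media 2 of 71 members were higher in the mutant line (against 3.27% of all genes) and 0 were lower (against 5.7%) by edgeR, while DESeq2 called 3 higher and 0 lower and limma called 1 and 0. With upd 2 members were higher (against 3.99%) and 1 was lower (against 6.53%). The edgeR shares are near or under those of all genes, while for DESeq2 and limma the shares of all genes are not given here. At an unadjusted p under 0.05 stood 11 members in each medium (15.5%), against 24.5% of all genes in control media and 26.3% with upd. Libraries of the lines did not overlap, with the mutant higher, for 22 members in control media (31.0%, against 28.2%) and for 28 with upd (39.4%, against 26.8%). They did not overlap, with the mutant lower, for 11 members in control media (15.5%, against 28.1%) and for 8 with upd (11.3%, against 26.4%). The median log2 difference was 0.05 in control media and 0.15 with upd, against 0.01 and 0.02 for all genes, and without wild-type control replicate 1, the shallow library, it was 0.16 in control media. Members under 750, of 750 to 1000 and of 1000 to 1500 bases had medians of 0.18, 0.08 and 0.11 with upd. All tested genes of these lengths had 0.17, 0.07 and 0.08, so with upd the members stood close to other genes of their length. In control media the members had −0.0015, 0.15 and 0.17, against −0.07, −0.04 and 0.06. The part of length between the lines was not tested. Leaving out 1 library gave 0 to 2 members called higher in control media, and 0 to 3 higher and 0 lower with upd. These comparisons use separate libraries, but each shares its libraries with the upd comparisons.

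mRpL3 passed in both media and had the largest difference in control media. Its bacterial counterpart is a core protein of the large subunit near the peptidyl transferase centre. The gene (FBgn0030686, X, 15761248 to 15762663, plus strand) had 64.5 and 54.8 CPM in mutant cells after upd and 65.9 and 61.1 CPM in mutant cells in control media, against 24.1 and 33.3 CPM in wild-type cells after upd and 26.7 and 29.4 CPM in wild-type cells in control media. Every mutant library was above every wild-type library by a gap wider than the spread within either line. It was 2.26-fold higher in control media (log2 1.18 ± 0.19, SE, adjusted p = 0.00726, edgeR) and 2.06-fold higher with upd (1.05 ± 0.19, adjusted p = 0.0108). Leaving out wild-type control replicate 1 ended the call in control media (adjusted p = 0.0516), as did leaving out mutant control replicate 1 (0.0557). The call with upd ended without wild-type upd replicate 1 (0.0629) or mutant upd replicate 1 (0.0599).

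mRpS30 lies 24.8 kb away on the same strand. It is named for the small subunit, but its mammalian counterpart sits in the large one. The gene (FBgn0030692, X, 15786047 to 15788288) had 175 and 183 CPM in mutant cells after upd and 213 and 198 CPM in mutant cells in control media, against 91.8 and 120 CPM in wild-type cells after upd and 87.2 and 127 CPM in wild-type cells in control media. Again no mutant library overlapped a wild-type one, and in both media the deep wild-type library read higher than the shallow one. The log2 difference was 0.94 ± 0.21 in control media (SE, adjusted p = 0.0268, edgeR), and 0.75 ± 0.21 with upd, where it did not pass (adjusted p = 0.0533). This call ended without wild-type control replicate 1 (adjusted p = 0.132), mutant control replicate 1 (0.151) or mutant control replicate 2 (0.0832).

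The genes around these members differed in the same direction. Of 23 other tested genes that start within 50 kb of mRpL3, 22 had positive differences in each medium, and 10 passed as higher and 0 as lower in each. Their median log2 difference was 0.90 in control media and 0.68 with upd. Around mRpS30, 19 of 20 neighbours were positive, 9 passed as higher in control media and 10 with upd, and 0 passed as lower. The windows overlap, so neighbours can be counted for both genes, and mRpL3 and mRpS30 are counted as neighbours of each other. Among the neighbours of mRpL3 that passed in control media is mRpS30. Among those of mRpS30 that passed in each medium is mRpL3. The differences of mRpL3 and mRpS30 were thus of the size of those of their stretch of X, while the 1391 tested genes of the whole X had a median of 0.02 in control media and 0.03 with upd. DNA copy number was not measured in these libraries, and its part in the result was not tested.

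**Figure D4:**
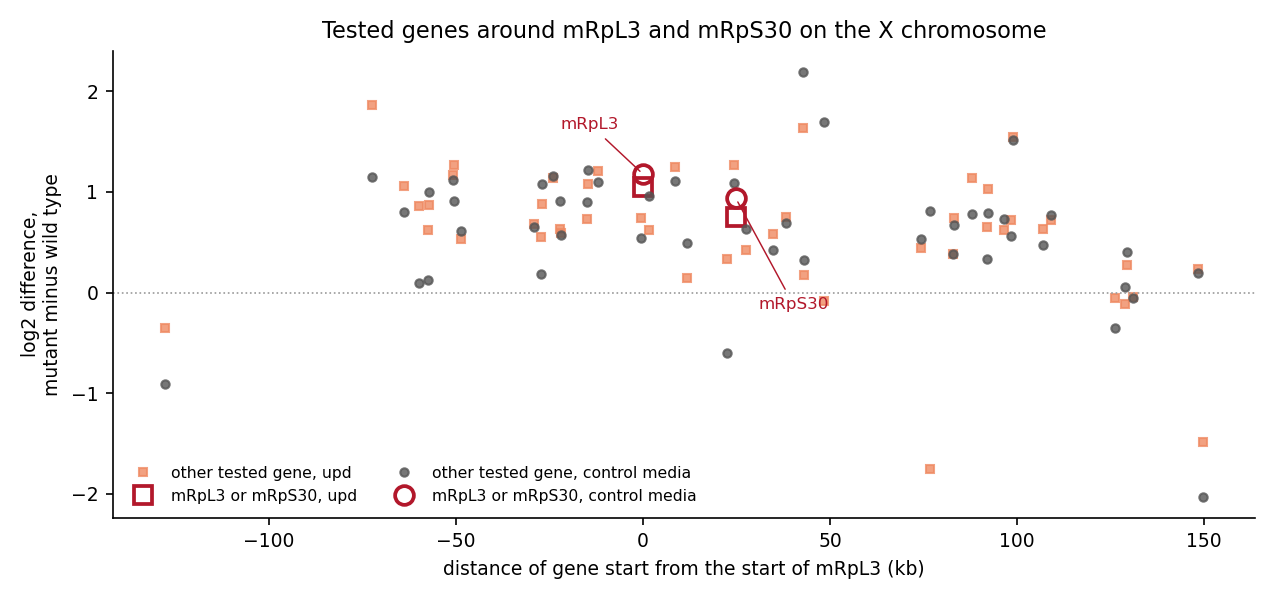
Log2 differences, mutant minus wild type, of tested genes around mRpL3 and mRpS30 on X, against the distance of each gene's start from that of mRpL3 in kb, with upd (squares) and in control media (circles). Within 50 kb of mRpL3, 22 of 23 other genes, mRpS30 among them, are above 0 in each medium. Their medians are 0.68 with upd and 0.90 in control media.

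mRpS18B passed with upd and not in control media, and the test of the difference between media did not pass (0.10 ± 0.27, adjusted p = 1, edgeR). It is 1 of 3 fly paralogs of a bacterial small subunit protein. The gene (FBgn0032849, 2L, 20096329 to 20097253, minus strand) had 40.1 and 38.5 CPM in mutant cells after upd and 36.2 and 39.5 CPM in mutant cells in control media, against 21.1 and 24.8 CPM in wild-type cells after upd and 27.4 and 20.4 CPM in wild-type cells in control media. All mutant libraries were higher than all wild-type libraries, with little spread in the mutant line. The log2 difference was 0.77 ± 0.19 with upd (SE, adjusted p = 0.0348, edgeR) and 0.67 ± 0.19 in control media (adjusted p = 0.0625). The call was lost in 6 of the 8 fits that left out 1 library, at adjusted p-values from 0.0607 to 0.156. Of its 11 tested neighbours within 50 kb, 10 were positive in each medium, with medians of 0.40 with upd and 0.31 in control media, and 2 passed as higher in each.

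The other paralogs did not pass in either medium. mRpS18A had 31.96 and 27.4 CPM in mutant cells after upd and 22.7 and 22.02 CPM in mutant cells in control media, against 24.8 and 20.1 CPM in wild-type cells after upd and 21.4 and 14.8 CPM in wild-type cells in control media. Its log2 difference between the lines was 0.41 ± 0.22 with upd and 0.32 ± 0.22 in control media, and neither passed. mRpS18C had 24.2 and 17.2 CPM in mutant cells after upd and 17.0 and 17.7 CPM in mutant cells in control media, against 20.6 and 16.9 CPM in wild-type cells after upd and 23.1 and 19.4 CPM in wild-type cells in control media, with differences of 0.15 ± 0.22 with upd and −0.29 ± 0.22 in control media. Per length the paralogs had close levels, with mean RPKM of 34.8 for mRpS18A, 31.8 for mRpS18B and 32.4 for mRpS18C. Whether the paralogs' differences between the lines are unequal was not tested.

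mRpL28, a large subunit protein, was the 1 member that edgeR called lower in the mutant line, with upd and not in control media. The gene (FBgn0031660, 2L, 4973976 to 4975316, plus strand) had 96.9 and 96.2 CPM in mutant cells after upd and 105 and 103 CPM in mutant cells in control media, against 143 and 138 CPM in wild-type cells after upd and 122 and 126 CPM in wild-type cells in control media. Replicates were close in each group, and no mutant library reached a wild-type one. The log2 difference was −0.54 ± 0.13 with upd (SE, adjusted p = 0.0351, edgeR) and −0.25 ± 0.13 in control media (adjusted p = 0.289). The call was lost in each of the 8 fits that left out 1 library, at adjusted p-values from 0.0508 to 0.134. Of its 20 tested neighbours within 50 kb, 17 were negative with upd and 18 in control media, with medians of −0.26 in both, and 1 passed as lower in each. Its neighbour in the set, mRpL24, starts 28.6 kb away and differed by −0.14 with upd and −0.26 in control media, and mRpS2, 94.9 kb further on, by −0.25 and −0.30.

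**Figure D5:**
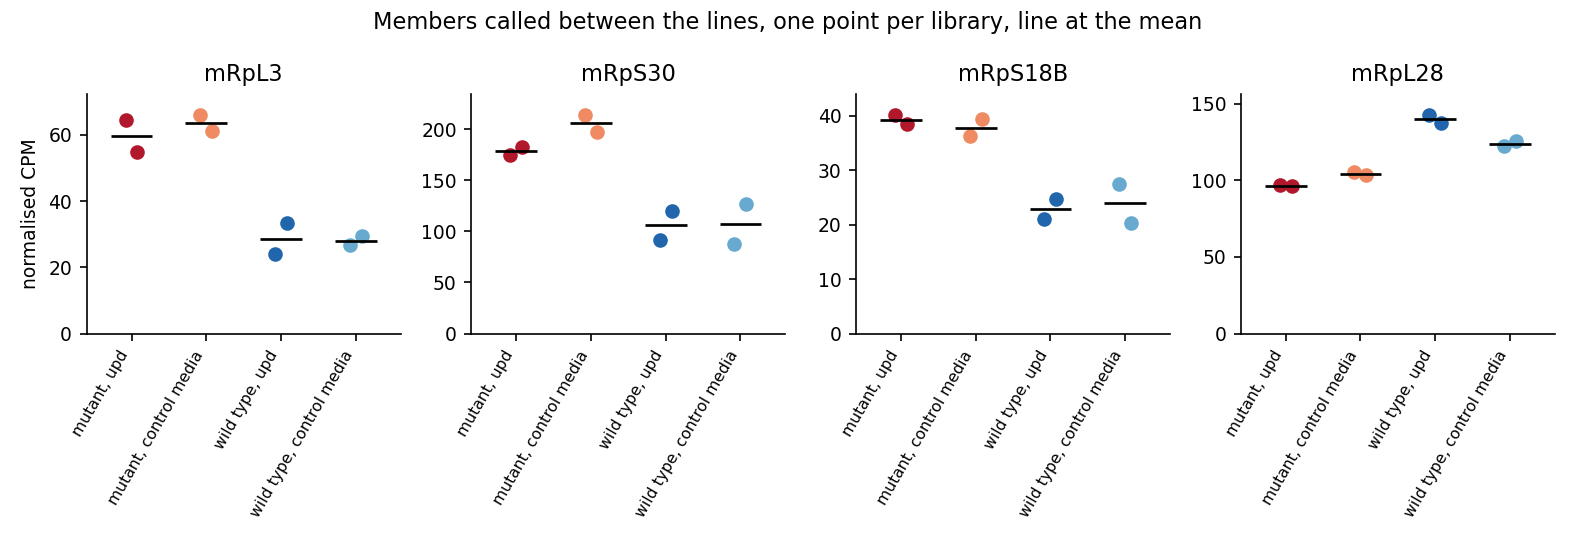
Normalised CPM of the 4 members that passed between the lines, 1 point per library with a bar at the group mean (n = 2), in mutant and wild-type cells with upd and in control media. Mutant libraries lie above wild-type ones for mRpL3, mRpS30 and mRpS18B and below them for mRpL28, with no overlap.

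The members next in order of p did not pass by edgeR. mRpL2, whose bacterial counterpart helps form the peptidyl transferase centre, had 79.3 and 46.2 CPM in mutant cells after upd and 49.8 and 37.4 CPM in mutant cells in control media, against 37.2 and 29.8 CPM in wild-type cells after upd and 28.4 and 28.4 CPM in wild-type cells in control media. Its groups did not overlap, and the log2 difference was 0.91 ± 0.27 with upd (SE, adjusted p = 0.066, edgeR) and 0.62 ± 0.27 in control media (adjusted p = 0.199). It passed with upd by DESeq2 (adjusted p = 0.0161), with no filter (0.000526) and without mutant upd replicate 2 (0.0191), and in control media with no filter (0.0393). Without mutant upd replicate 1 the difference with upd was 0.47 (adjusted p = 0.33). mRpS28 differed by 0.54 ± 0.17 with upd (adjusted p = 0.076). mRpS25, the highest member, had 309 and 304 CPM in mutant cells after upd and 381 and 366 CPM in mutant cells in control media, against 276 and 282 CPM in wild-type cells after upd and 308 and 240 CPM in wild-type cells in control media. Its difference was 0.14 ± 0.16 with upd and 0.45 ± 0.16 in control media (adjusted p = 0.117). mRpL14 had the most negative difference of any member in control media, −0.71 ± 0.26 (adjusted p = 0.127), from 7.32 and 9.39 CPM in the mutant line and 15.8 and 11.7 CPM in the wild-type line.

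Together the members had 4365 and 4128 CPM in mutant cells after upd and 4155 and 4119 CPM in mutant cells in control media, against 3737 and 3889 CPM in wild-type cells after upd and 3956 and 3629 CPM in wild-type cells in control media. Every mutant library was above every wild-type library in this sum, for which no test was made. Without mRpS25 and mRpS30, left out after their values were seen, the sums were 3881 and 3641 CPM in mutant cells after upd and 3561 and 3555 CPM in mutant cells in control media, against 3369 and 3487 CPM in wild-type cells after upd and 3561 and 3262 CPM in wild-type cells in control media. In control media the shallow wild-type library then read level with the mutant libraries, while the deep one stayed below both. Leaving out members that read higher in the mutant line narrows the gap by construction, so no conclusion is drawn from it. As a share of raw counts, the set took 0.401% and 0.421% in mutant cells after upd and 0.432% and 0.446% in mutant cells in control media, against 0.337% and 0.400% in wild-type cells after upd and 0.378% and 0.388% in wild-type cells in control media.

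With members divided by symbol, the balance leaned to those named for the small subunit in the mutant line. The ratio of summed large to summed small subunit RPKM was 1.46 and 1.40 in mutant cells after upd and 1.34 and 1.37 in mutant cells in control media, against 1.55 and 1.53 in wild-type cells after upd and 1.66 and 1.62 in wild-type cells in control media. No mutant library overlapped a wild-type one. With those genes left out again, the ratio was 1.99, 1.94, 2.004 and 2.04 in the mutant libraries in the same order, against 2.12, 2.10, 2.32 and 2.21 in the wild-type libraries. The gap was narrower then and still without overlap. By gene, the median difference between the lines in control media was 0.01 in the large subunit, with 24 of 46 positive, and 0.18 in the small subunit, with 19 of 25 positive. With upd these were 0.14 and 0.19, with 30 and 22 positive. The division follows the symbols, so mRpS30 counts as small in the first ratio and in the medians by gene, although its mammalian counterpart sits in the large subunit. The difference between the subunits was not tested.

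Between the lines, the members' median difference varied by chromosome arm. In control media the 12 members on 2L had a median difference between the lines of −0.26, and 3 of them were positive, against −0.12 for all 1411 tested genes of that arm. The 21 members on 3R had a median of 0.18, with 16 positive, against 0.04 for all genes of 3R. With upd the medians were −0.12 on 2L, with 4 of 12 positive, and 0.20 on 3R, with 18 of 21 positive. All tested genes of these arms then had medians of −0.09 and 0.05. In each medium and on each of the 5 arms, the sign of the members' median was that of all genes of the arm. On the arms other than 2L the medians of all genes were 0.02 to 0.05, and the members leaned positive as a set. Equal signs on those arms therefore say little, and a link of the members' differences with the arm was not tested.

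The other genes of mitochondrial gene expression gave few calls too. tko and bonsai, small subunit proteins that go by older mutant names, had 0 calls in any comparison by edgeR, DESeq2 or limma, and tko alone reached an unadjusted p under 0.05, with upd between the lines, at −0.37 ± 0.14 (adjusted p = 0.141, edgeR). Of 10 translation factors listed, 9 were matched and tested, and 0 passed in any comparison by any of these tools. 1 of them, the release factor mRF1, reached an unadjusted p under 0.05, at 0.70 ± 0.27 with upd between the lines (adjusted p = 0.135). It had 14.7 and 12.3 CPM in mutant cells and 9.33 and 7.46 CPM in wild-type cells. The 15 mitochondrial aminoacyl-tRNA synthetases, which charge tRNAs for this ribosome, had a median of 0.22 between the lines with upd (13 positive) and of 0.26 in control media (14 positive). ValRS-m passed with upd, with 6.91 and 6.544 CPM in mutant cells and 2.91 and 3.33 CPM in wild-type cells (1.09 ± 0.28, adjusted p = 0.0401), and edgeR called no other synthetase in any comparison. With upd edgeR thus called 1 of 15 synthetases higher, against 3.99% of all genes. Between the lines, DESeq2 called 3 synthetases with upd and 2 in control media, and limma called 0 in both. For DESeq2 and limma the shares of all genes are not given here, so their counts in these lists cannot be set against a general rate.

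After upd in mutant cells, 0 of the 15 synthetases were positive, with a median of −0.18, and none passed by any tool or reached an unadjusted p under 0.05. Their difference from the ribosomal proteins was not tested. In wild-type cells 3 of 15 were positive, with a median of −0.13. Of 16 genes for mitochondrial DNA and RNA machinery, 14 were tested and 2 were at 0 in all libraries. They had a median of 0.43 between the lines with upd (13 positive) and of 0.34 in control media (11 positive). At an unadjusted p under 0.05 by edgeR stood 7 of the 14 with upd and 5 in control media, against 26.3% and 24.5% of all genes. Lrpprc2, a protein that binds mitochondrial RNA, passed in control media with 33.2 and 32.3 CPM in mutant cells and 17.4 and 19.4 CPM in wild-type cells (0.83 ± 0.18, adjusted p = 0.027, edgeR). It was the 1 of 14 called higher there by edgeR, against 3.27% of all genes. Of 5 regulators of nuclear genes for mitochondria, 0 passed by any tool and 0 reached an unadjusted p under 0.05.

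Myc, the growth regulator of that list, had 1185 and 868 CPM in mutant cells after upd and 577 and 512 CPM in mutant cells in control media, against 1436 and 644 CPM in wild-type cells after upd and 1041 and 406 CPM in wild-type cells in control media. The shallow wild-type libraries read more than the deep ones in each medium. The log2 difference of upd was 0.91 ± 0.46 in mutant and 0.52 ± 0.46 in wild-type cells, and neither passed. The 13 proteins encoded by the mitochondrial genome, which this ribosome makes, were all positive after upd in mutant cells with a median of 0.62, and 12 were positive in wild-type cells with a median of 0.18. The wild-type direction was not the same at both depths. The mitochondrial genome's share of counts was 22.1% after upd and 20.2% in control media in the shallow libraries. In the deep libraries it was 12.8% after upd and 14.0% in control media. None of the 13 passed by edgeR in mutant cells, 5 stood at an unadjusted p under 0.05, DESeq2 called 1 and limma 0. Between the lines 8 of the 13 were positive with upd, with a median of 0.17, and 1 was positive in control media, with a median of −0.42. None of the 13 passed by edgeR between the lines in either medium, with 0 at an unadjusted p under 0.05 with upd and 2 in control media, where DESeq2 called 2. Those transcripts come from the organelle's own polymerase, and in each of these 4 comparisons their median difference was farther from 0 than that of the ribosomal proteins.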

How the data were processed

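Poly-A selected RNA of 8 libraries was studied, 2 in each of 4 groups taken from the labels. The labels do not say that replicates were separate cultures, and the p-values therefore reflect variation among libraries that may be technical. Per the submitters' processing notes, Trimmomatic 0.36 and STAR 2.5.2b were among the tools used, with the dm6 assembly. For the read counter, its annotation and its strand setting, the sources used here give nothing. The deposited tables hold whole-number counts and RPKM values for 13932 genes, per the file headers. Ensembl's annotation of dm6 supplied symbols and coordinates for 13852 identifiers.

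Counts were tested in R 4.3.3 by edgeR 4.0.16 (quasi-likelihood test), with TMM scaling, the filterByExpr filter (8126 genes left), 4 group means, 4 residual degrees of freedom and a two-sided adjusted p of 0.05 by Benjamini and Hochberg's method over all genes. CPM values are scaled by TMM. SE values were derived from the log2 difference and its F statistic. Alternatives were DESeq2 1.42.0, its size factors, limma 3.58.1 on log2(RPKM + 1) and log2(RPKM + 0.1), no filter, leaving out mitochondrially encoded genes, replicate blocks, and leaving out each library. Fits with the deep or the shallow wild-type libraries alone were chosen after seeing the data. The test was tried on simulated data.

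Members and lists were chosen with earlier results of these data known. Genes named are those that passed (up to 10 in each direction), the 5 lowest p where fewer than 5 passed, the 5 highest and 5 lowest by mean RPKM, the untested member, the mRpS18 paralogs and, in each other list, up to 4 called genes or the lowest p. Socs36E, mRpS33 and members named for their place beside another gene or in a neighbouring pair fall outside that rule and were chosen after their values were seen.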

Additional observations from a re-analysis of the deposited data

How the results depend on the processing

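The labels do not tie equal replicate numbers to a shared culture or day. Deviations of same-numbered libraries correlated within each line (r = 0.48 in wild-type and 0.51 in mutant cells) and not across the lines (−0.06 to 0.06). With 1 replicate block over both lines, 6 members (8.45%, against 7.45% of all genes) were higher in the mutant line with upd, mRpL2 among them (adjusted p = 0.0173, edgeR). With a replicate block within each line, 4 members (mRpL2, mRpS28, mRpS33 and mRpL27, adjusted p from 0.0243 to 0.0402) passed as higher after upd in mutant cells, 5.63% against 3.85% of all genes. In wild-type cells mRpL23 (1.41%, against 0.148%) passed as lower, at an adjusted p of 0.00199. That block was not used between the lines.

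No member that passed changed direction under any alternative run. The member counts below stand without the share of all genes in the same direction, so they cannot be set against a general rate. The medians of the members, which lie near 0, did change sign after upd: in both limma fits in either line and in the difference between lines, and for wild-type cells without wild-type control replicate 2 (−0.046) or with the shallow wild-type libraries alone (−0.046). Between the lines in control media, the number of members higher was 4 with no filter, 1 in each limma fit, 1 with the deep wild-type libraries alone, and 0 to 2 when 1 library was left out. The median of the members was 0.16 with the deep wild-type libraries alone and 0.0056 to 0.16 when 1 library was left out. With upd, the number higher was 4 by DESeq2, 5 with no filter, 1 in each limma fit, 0 with the deep wild-type libraries alone and 0 to 3 when 1 library was left out. The 1 lower member was lost (0) with no filter, in both limma fits, with the deep or the shallow libraries alone and whenever 1 library was left out (0 to 0). The member median after upd in mutant cells was −0.029 in both limma fits, with all genes at −0.14 and −0.18, and 0.048 to 0.20 when 1 library was left out. That of the difference between lines was −0.028 and −0.031 in the limma fits, −0.0061 with the deep wild-type libraries alone, −0.017 without wild-type control replicate 1, −0.013 without mutant upd replicate 1 and reached 0.26 without wild-type control replicate 2.

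Over all genes, 729 differed between the lines in control media, against 1294 with no filter, 1247 with the replicate block, 331 with the deep and 292 with the shallow wild-type libraries alone. With upd these were 855, 1429, 1386, 470 and 311. After upd 0 passed in either line. In mutant cells this became 2 by DESeq2, 18 with no filter and 467 with the block within each line. In wild-type cells it became 9, 16 and 111, and 1 with the block over both lines. For the difference between lines it became 4 with no filter and 33 with the block within each line. The causes of these shifts were not tested. With 2 libraries a group and a median SE of 0.20 to 0.21 for a member, differences of that size were not detectable in single genes. Among the members that edgeR called, the difference nearest to 0 was −0.54, for mRpL28 between the lines with upd.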
